A study of Mus musculus with 32 samples.

Results

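The immediate early AP-1 and EGR genes described here are 10 genes, namely *Fos*, *Fosb*, *Fosl2*, *Jun* and *Junb*, *Egr1*, *Egr2* and *Egr3*, *Nr4a1* and *Dusp5*. They were selected by symbol, as rows of the deposited count table whose Ensembl identifier maps to it. They were chosen because *Fosb*, *Egr2*, *Egr3* and *Dusp5* differed between the *Trex1* genotypes on some of the days. They are 10 of the 54281 gene identifiers in the table, and all 10 were among the 15257 identifiers that passed a filter on low counts. Differences between the genotypes chose the genes, so these are given as a description without a test. Changes between days and the effect of 4-hydroxytamoxifen (4-OHT) were tested on averages over the genotypes.

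Immediate early genes are transcribed within minutes of a stimulus, from factors that are already present in the cell, and most of their transcripts are short-lived. FOS and JUN family proteins pair to form the transcription factor AP-1, EGR proteins are zinc finger factors that bind GC-rich sites, NR4A1 is an orphan nuclear receptor, and DUSP5 is a nuclear phosphatase that inactivates the kinase ERK. In macrophages these genes are known to respond to growth factors such as M-CSF and to inflammatory stimuli, mainly through MAP kinases and the factors SRF and CREB.

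The libraries came from bone marrow-derived macrophages (BMDMs) of *Trex1 FL/FL R26 CreERT2* mice and of *Trex1 WT/FL R26 CreERT2* mice. All cells carry the CreERT2 transgene in the *R26* locus, whose Cre recombinase stays inactive until 4-OHT binds it and lets it cut out the loxP-flanked sequence of *Trex1*, the gene of a DNA exonuclease. *Trex1 FL/FL* cells can lose both alleles, while *Trex1 WT/FL* cells can lose 1 and keep a wild type allele, so neither treated group is free of recombination. 4-OHT was given at 2 µg/ml during 22 h, untreated cells served as controls, and RNA was sequenced on days 1, 2, 3 and 4 afterwards. Genotype, treatment and day make 16 groups with 2 libraries each, 32 in all. The labels name no animal, age, culture or batch, so that p-values measure the spread between these libraries, which may be technical, and the day after exposure cannot be told apart from the day of harvest or from time in culture.

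Libraries held 35120505 to 63760884 counts (median 44841991). *Trex1* held 0 to 14 counts in the libraries of 4-OHT-treated *Trex1 FL/FL* cells, 758 to 3622 in 4-OHT-treated *Trex1 WT/FL* cells and 1174 to 6553 in untreated cells. Over the 32 libraries the 10 macrophage markers summed to 15677 to 49906 CPM (counts scaled to library size), the 8 neutrophil markers to 4.69 to 19.1 CPM and the 7 lymphocyte markers to at most 0.243 CPM. In this RNA from whole cultures, fewer cells of a type and less RNA per cell cannot be told apart. The pair of untreated *Trex1 FL/FL* libraries of day 1 stood apart from the other pairs. The robust SD of the log2 difference between its libraries was 0.251, against 0.138 to 0.203 in the other 15 groups, and its replicate 2 held *Junb* at 83.5 CPM where replicate 1 held 196 CPM. Some results of *Junb* and *Jun* that rest on this library are therefore also given without it. Without it, the genotype difference in untreated cells on day 1 went from 0.62 to 0.89 on the log2 scale for *Egr1*. It went from 0.10 to 0.30 for *Fosl2* and from −0.19 to −0.01 for *Jun*.

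Of the 10 genes, 8 had a promoter window in the RefSeq set used here (build GRCm38.p6, 250 bases before to 50 bases after a transcript start), and *Egr1* and *Egr3* had none. The windows of *Dusp5*, *Egr2* and *Fosb*, which are among the genes that chose this set, are shown 5′ to 3′ on the strand of the gene. So are those of *Fos* and *Nr4a1*, which fell to day 2 and rose to day 3. For *Egr2*, which had 5 windows, the middle one by position is shown. Capitals mark matches on either strand to the CArG box that SRF binds, to TGACG, the core of the cyclic AMP response element (CRE), to the EGR site GCGNGGGCG and to the TATA box TATAAA.
*Dusp5*, chr19:53528895-53529194, plus strand: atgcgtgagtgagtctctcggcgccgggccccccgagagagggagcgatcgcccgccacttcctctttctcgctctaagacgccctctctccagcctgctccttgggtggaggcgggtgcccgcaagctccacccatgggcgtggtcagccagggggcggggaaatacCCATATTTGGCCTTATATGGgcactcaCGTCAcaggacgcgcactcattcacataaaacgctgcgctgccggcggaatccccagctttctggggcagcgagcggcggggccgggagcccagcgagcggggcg
*Egr2*, chr10:67537619-67537918, plus strand: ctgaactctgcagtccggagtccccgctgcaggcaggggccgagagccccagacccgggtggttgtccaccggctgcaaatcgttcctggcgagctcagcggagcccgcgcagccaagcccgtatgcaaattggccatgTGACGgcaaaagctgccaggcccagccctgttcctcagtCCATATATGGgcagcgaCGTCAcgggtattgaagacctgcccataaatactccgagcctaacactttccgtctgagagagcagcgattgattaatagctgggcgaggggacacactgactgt
*Fosb*, chr7:19309996-19310295, minus strand: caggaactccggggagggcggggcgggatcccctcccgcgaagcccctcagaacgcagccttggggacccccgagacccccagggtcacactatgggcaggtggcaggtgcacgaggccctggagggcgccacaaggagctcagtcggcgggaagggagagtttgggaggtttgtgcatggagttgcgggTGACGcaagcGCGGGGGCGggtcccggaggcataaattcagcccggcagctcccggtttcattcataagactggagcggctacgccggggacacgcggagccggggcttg
*Fos*, chr12:85473640-85473939, plus strand: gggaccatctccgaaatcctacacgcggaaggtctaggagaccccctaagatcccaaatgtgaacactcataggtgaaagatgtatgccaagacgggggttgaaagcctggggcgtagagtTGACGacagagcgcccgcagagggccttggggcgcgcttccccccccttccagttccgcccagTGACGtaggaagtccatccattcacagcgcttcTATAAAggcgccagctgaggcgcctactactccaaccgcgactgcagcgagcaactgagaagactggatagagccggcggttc
*Nr4a1*, chr15:101266596-101266895, plus strand: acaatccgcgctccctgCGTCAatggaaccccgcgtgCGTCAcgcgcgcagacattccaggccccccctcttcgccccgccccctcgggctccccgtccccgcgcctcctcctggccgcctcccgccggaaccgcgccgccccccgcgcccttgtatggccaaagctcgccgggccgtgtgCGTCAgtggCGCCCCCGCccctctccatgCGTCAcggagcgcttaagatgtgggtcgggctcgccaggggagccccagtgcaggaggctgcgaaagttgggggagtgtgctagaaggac

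The 2 CArG boxes of *Dusp5* lie side by side, and a CRE core follows them. The *Egr2* window shown held 1 CArG box between 2 CRE cores. *Fos* held 2 CRE cores and a TATA box, *Fosb* held 1 CRE core and 1 EGR site, and *Nr4a1* held 4 CRE cores and 1 EGR site. Among the windows not shown, *Junb* held 1 CRE core and a TATA box, *Fosl2* held 1 EGR site, and *Jun* held none of these motifs. Of the other *Egr2* windows by position, number 1 held none of them and number 2 held a CArG box without a CRE core. Numbers 4 and 5 held the same motifs as the one shown. Over all 32851 windows, 1.63% held a CArG box, 20.8% a CRE core, 5.55% the EGR site and 13.6% the TATA box. The AP-1 site TGANTCA, found in 7.81% of all windows, and the full element TGACGTCA, found in 1.79% and containing the core, occurred in no window of these genes. A match is a description of letters within 300 bases and was not tested as a binding site.

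Per kilobase of the canonical transcript, the median level over the 32 libraries was highest for *Junb* (103 CPM per kb), *Fos* (96.9) and *Jun* (51.4). *Fosl2* followed with 7.51, *Dusp5* with 3.65, *Nr4a1* with 2.25 and *Egr2* with 1.42 CPM per kb. *Egr1* (0.544), *Fosb* (0.222) and *Egr3* (0.129 CPM per kb) were lowest. Neighbours in this order overlapped across libraries, since *Junb* ranged from 46.1 to 159 and *Fos* from 35.4 to 328 CPM per kb. The gap between *Jun*, whose lowest library stood at 31.0, and *Fosl2*, whose highest stood at 24.5 CPM per kb, was the only one between neighbours without such an overlap. The order also changed with the day. *Fosb* had a median of 0.0570 CPM per kb on day 2, below all but *Egr3*, and of 5.01 CPM per kb on day 4, close to *Dusp5* (5.18) and *Nr4a1* (4.53).

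The first question the time course allows is how these genes moved while the cultures aged, whatever their genotype and treatment. Averaged over the groups, most of them traced a dip and a return. From day 1 to day 2, 8 of the 10 genes fell and 0 rose at an adjusted p below 0.01, against 29.2% of all tested genes that fell and 30.8% that rose. From day 2 to day 3, 9 rose and 1 fell, against 29.7% and 28.3% of all genes. From day 3 to day 4, 7 rose and 2 fell, against 15.1% and 15.8%. The median log2 fold change of the 10 genes was −1.30, 1.48 and 0.50 in these steps, while that of all genes was 0.002, 0.029 and 0.001. The study also required a log2 fold change beyond 1.5 in either direction, and with this limit added the counts were 4 lower on day 2, 5 higher on day 3 and 1 higher on day 4.

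**Figure D1:**
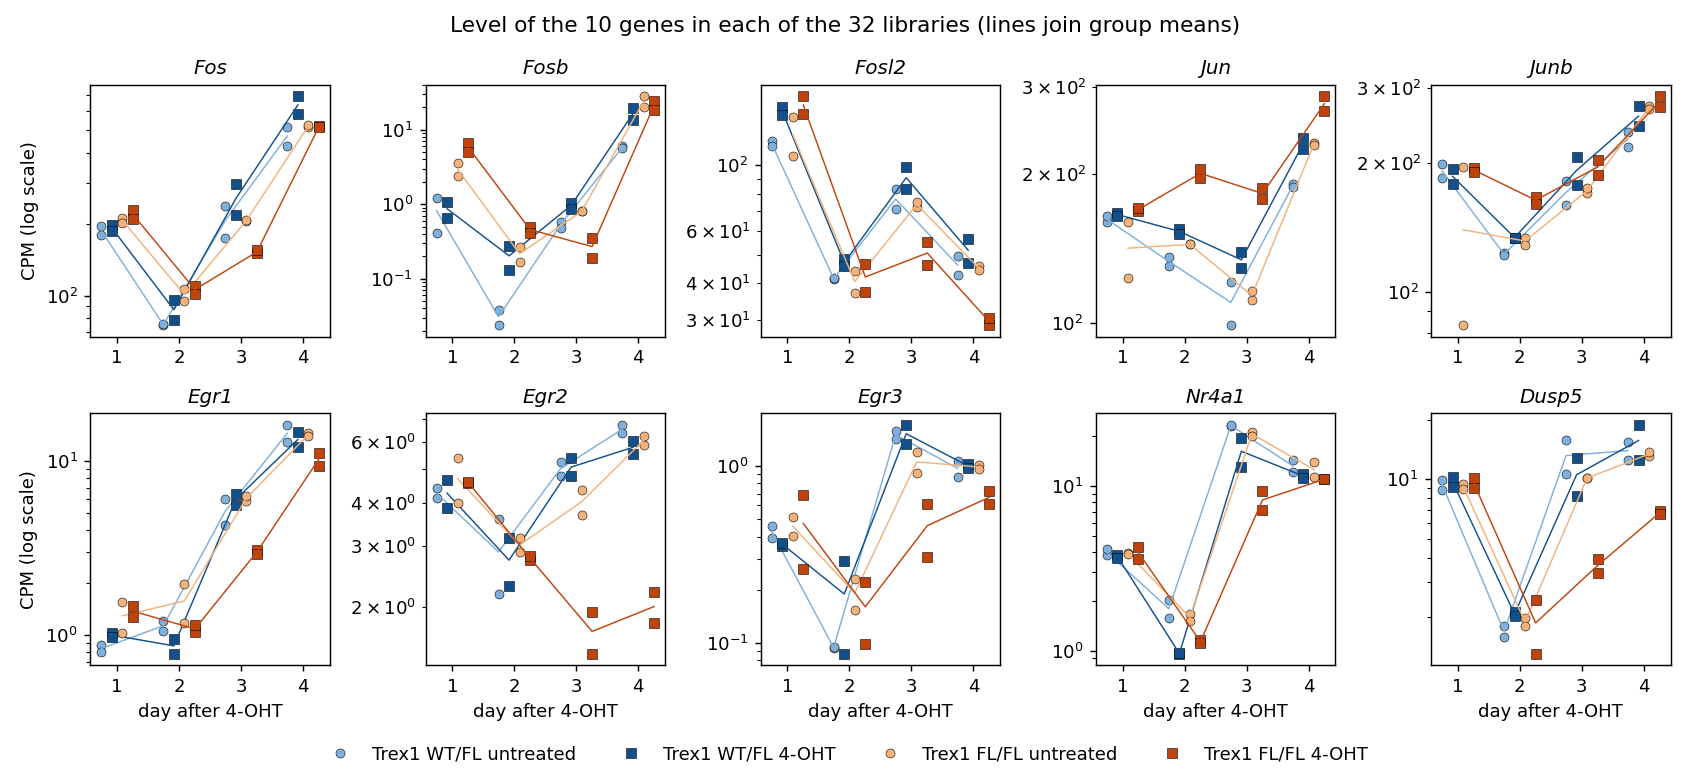
CPM of each gene (log axis) against the day after 4-OHT, with a point for each of the 32 libraries and lines through the means of the 2 libraries of a group. The median over the 8 libraries of a day is lowest on day 2 for 8 of the 10 genes. On days 3 and 4 the 4-OHT-treated *Trex1 FL/FL* libraries (dark orange squares) lie above the others for *Jun*. They lie below them for *Egr2*, *Egr1*, *Dusp5*, *Fosl2*, *Egr3* and *Nr4a1*, for *Nr4a1* on day 4 only narrowly.

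Among the FOS genes, *Fos* (chromosome 12, 85520658 to 85524047, GRCm39), the founding partner of JUN in AP-1, was at 180 to 230 CPM in the 8 libraries of day 1 (median 200) and at 74.9 to 110 CPM on day 2 (median 95.1). It was at 151 to 296 CPM on day 3 (median 208) and at 430 to 694 CPM on day 4 (median 517). The libraries of day 2 lay below those of every other day and those of day 4 above, so that neither overlapped with its neighbours. *Fos* fell by 1.14 on the log2 scale from day 1 to day 2 (SE 0.0724, adjusted p = 4.58e-11), a 2.20-fold change. It then rose by 1.15 to day 3 (SE 0.0725, adjusted p = 5.12e-11) and another 1.40 to day 4 (SE 0.0720, adjusted p = 2.61e-11).

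*Fosb* (chromosome 7, 19036621 to 19043976), a FOS protein that is almost silent in many resting cells, moved most widely. It was at 0.413 to 6.71 CPM on day 1, at 0.0236 to 0.495 CPM on day 2, at 0.188 to 1.05 CPM on day 3 and at 5.68 to 28.2 CPM on day 4. All 8 libraries of day 4 lay above all libraries of days 2 and 3. *Fosb* fell 11.5-fold from day 1 to day 2 (log2 fold change −3.52, SE 0.249, adjusted p = 1.16e-11). The 2 untreated *Trex1 WT/FL* libraries of day 2 held only 2 and 1 counts, and the fall was −3.67 in 4-OHT-treated and −3.77 in untreated *Trex1 FL/FL* cells and −2.05 in 4-OHT-treated *Trex1 WT/FL* cells. From day 2 to day 3 the averaged change was 1.80 (SE 0.303, adjusted p = 1.58e-05), but in 4-OHT-treated cells alone it was 0.67 (adjusted p = 0.131). That value averages 2.20 in *Trex1 WT/FL* cells and −0.85 in *Trex1 FL/FL* cells. From day 3 to day 4 *Fosb* rose 26.2-fold (log2 fold change 4.71, SE 0.184, adjusted p = 7.15e-15), the largest change of any of the 10 genes in a step between days.

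*Fosl2* (chromosome 5, 32292707 to 32315186) encodes FRA2, a FOS-related protein that lacks the strong activation domain of FOS. It was highest on day 1, at 108 to 171 CPM (median 147), and its libraries of day 2 ranged from 37.1 to 48.2 CPM (median 42.8). It fell by 1.70 on the log2 scale from day 1 to day 2 (SE 0.0715, adjusted p = 3.67e-14) and rose by 0.74 to day 3 (SE 0.0712, adjusted p = 1.71e-08). Then it fell again, by 0.76 to day 4 (SE 0.0715, adjusted p = 6.63e-08), when *Fos* and *Fosb* rose. Its last 8 libraries ranged from 28.9 to 56.5 CPM.

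The JUN genes moved less. *Jun* (chromosome 4, 94937271 to 94940459), the main DNA-binding partner of FOS, was at 123 to 171 CPM on day 1, 130 to 205 CPM on day 2, 98.8 to 187 CPM on day 3 and 188 to 287 CPM on day 4. Its change from day 1 to day 2 was −0.03 (SE 0.0415, adjusted p = 0.488), which did not pass. *Jun* fell by 0.24 on the log2 scale to day 3 (SE 0.0417, adjusted p = 1.94e-05), the only one of the 10 genes to fall in that step, and rose by 0.80 to day 4 (SE 0.0418, adjusted p = 7.95e-14). In 4-OHT-treated cells alone the fall was −0.16 (adjusted p = 0.0200). *Junb* (chromosome 8, 85701113 to 85705359), a JUN protein that can restrain JUN, fell by 0.36 on the log2 scale from day 1 to day 2 (SE 0.113, adjusted p = 0.00893). This was a borderline call: without the untreated *Trex1 FL/FL* replicate 2 of day 1 the fall was −0.48 (adjusted p = 1.20e-12), and leaving out any of 30 single libraries took the adjusted p above 0.01. *Junb* rose by 0.41 to day 3 (SE 0.113, adjusted p = 0.00382) and by 0.50 to day 4 (SE 0.112, adjusted p = 0.00168), and was at 219 to 287 CPM on that day. In untreated or 4-OHT-treated cells alone none of the 3 steps of *Junb* passed, with adjusted p-values from 0.0168 to 0.0635.

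Of the EGR genes, *Egr1* and *Egr3* had lower medians on days 1 and 2 than on days 3 and 4. *Egr1* (chromosome 18, 34992876 to 34998049), the EGR factor most widely used as a marker of recent stimulation, was at 0.803 to 1.56 CPM on day 1 and 0.785 to 1.98 CPM on day 2, a change of 0.04 (SE 0.125, adjusted p = 0.800). It was at 2.91 to 6.48 CPM on day 3 and 9.33 to 16.0 CPM on day 4, with no overlap between days 2, 3 and 4. It rose by 2.09 on the log2 scale from day 2 to day 3 (SE 0.115, adjusted p = 3.19e-15) and another 1.40 by day 4 (SE 0.101, adjusted p = 1.43e-11). *Egr3* (chromosome 14, 70314350 to 70320063), a related factor that EGR1 can induce, held few reads. Its 8 libraries of day 2 stood at 0.0871 to 0.292 CPM, and those of day 3 at 0.308 to 1.71 CPM, all of them above. It fell by 1.46 from day 1 to day 2 (SE 0.276, adjusted p = 3.45e-05), rose by 2.71 to day 3 (SE 0.271, adjusted p = 1.01e-09) and had a change of −0.19 to day 4 (SE 0.234, adjusted p = 0.554).

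*Egr2* (chromosome 10, 67371305 to 67378018), an EGR factor with known roles in macrophage and lymphocyte differentiation, had daily medians from 2.84 to 5.94 CPM. It fell by 0.65 on the log2 scale from day 1 to day 2 (SE 0.104, adjusted p = 3.88e-06), from 3.86 to 5.40 CPM down to 2.17 to 3.59 CPM. Its averaged rises of 0.36 to day 3 (SE 0.106, adjusted p = 0.00436) and of 0.35 to day 4 (SE 0.105, adjusted p = 0.00939) did not hold in treated cells alone. There the changes were 0.10 (adjusted p = 0.593) and 0.21 (adjusted p = 0.358), and in untreated cells alone the second was 0.48 (adjusted p = 0.0106). Leaving out any of 23 single libraries also ended the call of the second rise. In the 4-OHT-treated *Trex1 FL/FL* cells the change from day 2 to day 3 was −0.69, and in the other 3 groups it was 0.42 to 0.89.

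*Nr4a1* (chromosome 15, 101151980 to 101172681), also known as Nur77, fell by 1.54 on the log2 scale from day 1 to day 2 (SE 0.0931, adjusted p = 2.25e-14). It was at 3.61 to 4.27 CPM on day 1 and at 0.958 to 2.02 CPM on day 2. From day 2 to day 3 it rose 11.9-fold (log2 fold change 3.58, SE 0.0908, adjusted p = 8.44e-23), to 7.19 to 23.5 CPM, the largest change of the 10 genes in that step. It then fell by 0.40 to day 4 (SE 0.0752, adjusted p = 7.98e-05). This last fall was −0.76 in untreated cells and −0.04 in 4-OHT-treated cells (adjusted p = 0.824), where −0.50 in *Trex1 WT/FL* cells stood against 0.41 in *Trex1 FL/FL* cells.

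*Dusp5* (chromosome 19, 53517532 to 53530862), itself induced by ERK signaling, fell by 2.34 on the log2 scale from day 1 to day 2 (SE 0.124, adjusted p = 3.30e-14). Its 8 libraries lay at 8.88 to 10.3 CPM on day 1 and at 1.30 to 2.43 CPM on day 2. It rose by 2.17 to day 3 (SE 0.125, adjusted p = 2.14e-13) and by 0.49 to day 4 (SE 0.111, adjusted p = 0.000958). The change to day 3 was 0.95 in *Trex1 FL/FL* cells given 4-OHT and 2.35 to 2.97 in the other 3 groups. In untreated cells alone the last step was 0.24 (adjusted p = 0.249).

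**Figure D2:**
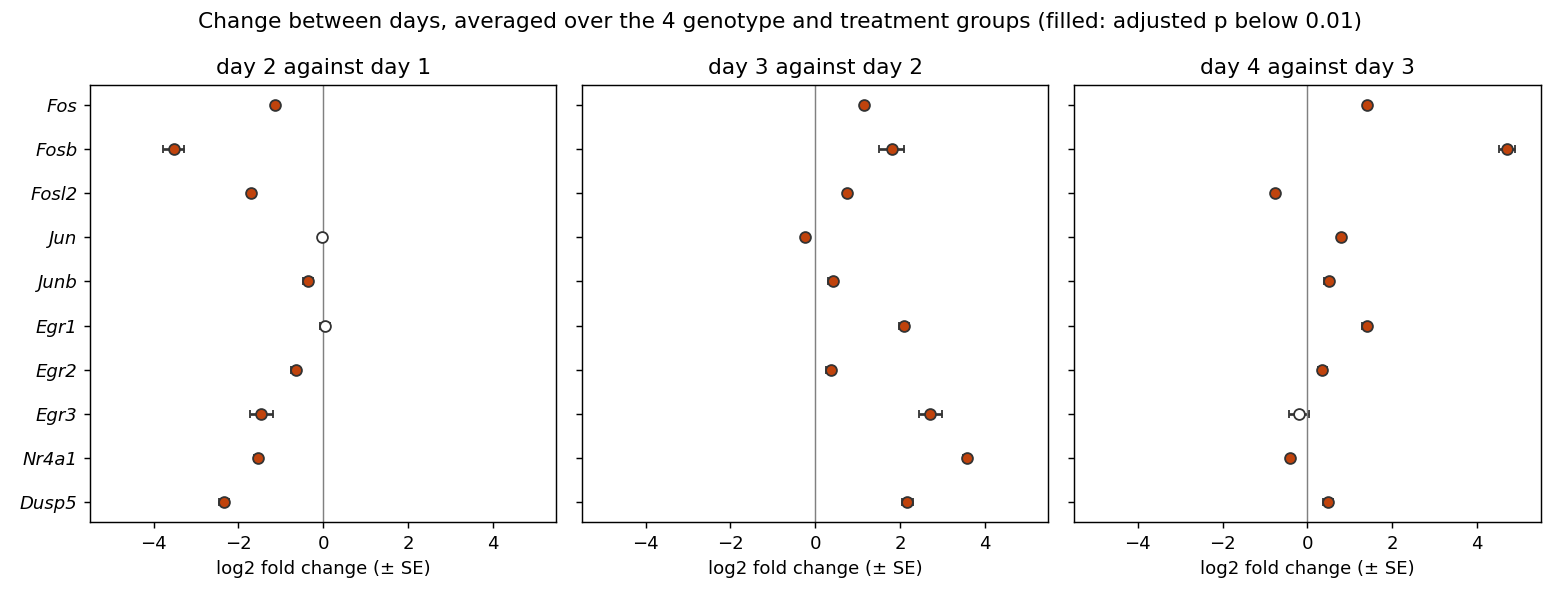
Log2 fold change of each gene between consecutive days, averaged over the 4 genotype and treatment groups, with bars for the standard error. Filled points passed an adjusted p below 0.01. From day 1 to day 2 all filled points lie left of 0, from day 2 to day 3 all but *Jun* lie right of 0, and from day 3 to day 4 *Fosl2* and *Nr4a1* lie left while *Fosb* lies at 4.71.

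Other genes of the same pathways were counted from lists, which were drawn up with earlier results of these data known. The counts here and in the next paragraph stand beside shares of all tested genes at the same adjusted p below 0.01. Of all genes, 29.2% fell and 30.8% rose to day 2, and 28.3% fell and 29.7% rose to day 3. To day 4, 15.8% fell and 15.1% rose. No list was tested as a set. Of 26 other tested immediate early genes, 12 fell and 9 rose from day 1 to day 2, 17 rose and 7 fell to day 3, and 15 rose and 3 fell to day 4. Among them *Zfp36*, which encodes a protein that speeds mRNA decay, rose in each step, by 0.60 (SE 0.0409, adjusted p = 4.33e-13), 0.71 and 0.75 on the log2 scale. Of 14 tested AP-1 partners, 5 fell and 7 rose to day 2, 6 rose and 2 fell to day 3, and 6 rose and 2 fell to day 4. *Maf*, a large MAF factor of macrophages, rose by 1.36 to day 2 (SE 0.0278, adjusted p = 1.01e-24), and *Atf3*, a stress-induced partner of JUN, by 0.74 (SE 0.0334, adjusted p = 2.93e-17), both in the step in which *Fos*, *Fosb* and *Fosl2* fell. Of 4 tested EGR and NR4A partners, 1 fell to day 2 and 3 rose to day 3. *Nr4a2*, the closest relative of *Nr4a1*, changed by −1.13 (SE 0.160, adjusted p = 5.10e-07) and then by 1.79 (SE 0.160, adjusted p = 1.07e-10).

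Of 8 other dual-specificity phosphatases, 4 fell and 0 rose to day 2, 3 rose and 5 fell to day 3, and 5 rose and 1 fell to day 4. *Dusp1*, which acts on the MAP kinases p38 and JNK, rose by 2.68 on the log2 scale from day 3 to day 4 (SE 0.0687, adjusted p = 3.57e-16). It was at 23.9 to 42.0 CPM on day 3 and at 185 to 255 CPM on day 4. Of 7 tested feedback inhibitors of the ERK pathway, 6 fell to day 2, 4 fell and 1 rose to day 3, and 3 rose to day 4. *Spred2*, an inhibitor of RAF activation, fell by 0.93 (SE 0.0398, adjusted p = 9.82e-18) and by 1.34 (SE 0.0423, adjusted p = 1.15e-20) on the log2 scale in the first steps. Of 25 tested genes of the MAP kinase chain, 11 rose and 8 fell to day 2, 10 rose and 11 fell to day 3, and 4 rose and 5 fell to day 4, and the medians of the list were 0.03, 0.00 and 0.00. *Csf1r*, the receptor of M-CSF, rose by 0.88 (SE 0.0287, adjusted p = 2.65e-20) and 1.13 (SE 0.0288, adjusted p = 9.47e-23). Of 11 factors of the SRF, TCF and CREB group, 5 rose and 4 fell to day 2, 7 rose and 2 fell to day 3, and 3 rose and 2 fell to day 4. Of 9 tested heat shock genes, 6 fell and 1 rose to day 2, 6 fell and 1 rose to day 3, and 4 rose and 1 fell to day 4.

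The next question is how 4-OHT-treated cells differed from untreated cells, taken as the mean over the 2 genotypes and called the effect of 4-OHT. In *Trex1 FL/FL* cells 4-OHT also removes *Trex1*. This mean therefore joins the exposure and the loss of *Trex1*, and cannot tell them apart. On day 1, 0 of the 10 genes rose and 0 fell by edgeR, with adjusted p-values of 0.917 or more, against 0% of all genes higher and 0.0262% lower. By unadjusted p, 3 of them were below 0.05, and DESeq2 also called 0 in both directions. On day 2, 1 rose and 1 fell (background 5.43% and 2.06%), on day 3, 1 rose and 3 fell (6.38% and 5.26%), and on day 4, 1 rose and 1 fell (7.90% and 7.06%). None of these changes exceeded 1.5 on the log2 scale. This average is not independent of the genotype difference in treated cells, so for the 10 genes the values of each genotype are given beside it. For *Egr2*, *Egr3*, *Dusp5* and *Fosb*, which chose the set, this average is a description. The counts of genes that fell include *Egr2* and *Dusp5* on day 3 and *Egr2* on day 4. Nothing is therefore read from these counts beside the background.

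*Jun* was the gene that rose on each of days 2, 3 and 4. It rose by 0.34 on the log2 scale on day 2 (SE 0.0589, adjusted p = 0.000145), by 0.49 on day 3 (SE 0.0592, adjusted p = 8.68e-07) and by 0.28 on day 4 (SE 0.0585, adjusted p = 0.000817). On day 3 it stood at 139 and 129 CPM in treated *Trex1 WT/FL* cells and at 178 and 187 CPM in treated *Trex1 FL/FL* cells. The untreated cells held 121 and 98.8 CPM and 111 and 116 CPM, below the treated libraries. By genotype the effect was 0.20 and 0.48 on day 2, 0.29 and 0.68 on day 3, and 0.28 and 0.27 on day 4 for *Trex1 WT/FL* and *Trex1 FL/FL* cells. The 10 heat shock genes summed to 3355 and 3359 CPM in treated *Trex1 FL/FL* cells on day 2 and to 2618 to 2837 CPM in the other libraries of that day, with 0 of the 10 genes at 0 in all libraries. On day 3 these ranges were 2924 to 3090 and 2991 to 3315 CPM, on day 4 they were 2936 to 2976 and 2336 to 2578 CPM, and their part in the level of *Jun* was not tested.

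*Nr4a1* fell by 0.70 on the log2 scale on day 2 (SE 0.148, adjusted p = 0.00142) and by 0.92 on day 3 (SE 0.106, adjusted p = 2.72e-07). On day 2 the treated libraries held 0.958, 0.967, 1.16 and 1.11 CPM, and the untreated ones 2.02, 1.58, 1.67 and 1.52 CPM, without overlap. On day 3 the treated *Trex1 WT/FL* libraries held 19.5 and 13.0 CPM and the treated *Trex1 FL/FL* libraries 7.19 and 9.27 CPM, against 20.2 to 23.5 CPM in untreated cells. By genotype the effect was −0.91 and −0.49 on day 2 and −0.52 and −1.32 on day 3 for *Trex1 WT/FL* and *Trex1 FL/FL* cells. On day 4 the averaged effect was −0.20 (SE 0.107, adjusted p = 0.201), which did not pass. The effect of 4-OHT on *Nr4a1* changed by 0.72 from day 3 to day 4 (SE 0.150, adjusted p = 0.00476). Without the untreated *Trex1 WT/FL* replicate 1 of day 2 the effect on that day was −0.60 (adjusted p = 0.0189).

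That change of *Nr4a1* was the only change of a 4-OHT effect between consecutive days to pass among the 10 genes. From day 1 to day 2, 0 passed in either direction, against 2.69% of all genes higher and 0.459% lower, and 4 had an unadjusted p below 0.05. From day 2 to day 3, 0 passed in either direction, against 0.170% and 0.328%, and 3 had an unadjusted p below 0.05, while DESeq2 called *Fosb* and *Dusp5* as lower. From day 3 to day 4, 1 was higher and 0 were lower, against 0.478% and 1.19%. Without the untreated *Trex1 FL/FL* replicate 2 of day 1, the effect on *Jun* grew by 0.29 from day 1 to day 2 (adjusted p = 0.00663), where the value over all libraries was 0.20 (adjusted p = 0.215).

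None of the genes of the pathway lists passed on day 1 of 4-OHT. For the lists only the average over the genotypes was computed, and their counts stand beside shares of all genes of 5.43% higher and 2.06% lower on day 2, 6.38% and 5.26% on day 3, and 7.90% and 7.06% on day 4. Of the 26 other immediate early genes, 6 rose on day 2, 5 rose and 4 fell on day 3, and 7 rose and 3 fell on day 4. Of the 14 AP-1 partners, 3 rose on day 2, 2 rose and 1 fell on day 3, and 2 rose and 2 fell on day 4. Of the 4 EGR and NR4A partners 1 rose on each day. Of the 8 dual-specificity phosphatases, 0 changed on day 2, 2 rose and 1 fell on day 3, and 3 rose on day 4. Of the 7 ERK feedback inhibitors, 1 rose on day 2, 1 fell on day 3, and 2 rose and 1 fell on day 4. In the MAP kinase chain 1 of 25 genes rose on day 2, 2 fell on day 3, and 2 rose and 2 fell on day 4, while of the 11 SRF, TCF and CREB factors 1 fell, on day 3. Of the 9 heat shock genes, 4 rose on day 2, 1 on day 3 and 2 on day 4. These averages do not show in which genotype a gene changed. On day 2 the 10 listed heat shock genes summed to 2754 to 2837 CPM in treated and 2708 to 2741 CPM in untreated *Trex1 WT/FL* cells. In *Trex1 FL/FL* cells they summed to 3355 to 3359 CPM with 4-OHT and 2618 to 2719 CPM without.

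As a description, the averaged effect on *Egr2* was −0.61 on day 3 and −0.88 on day 4. It was 0.01 and −0.18 in *Trex1 WT/FL* cells and −1.23 and −1.59 in *Trex1 FL/FL* cells. For *Dusp5* it was −0.90 on day 3, from −0.32 and −1.49 in the 2 genotypes, and −0.41 on day 4, from 0.17 and −0.99. On day 3 *Egr3* had −1.23 in the *Trex1 FL/FL* cells, where the *Trex1 WT/FL* cells had 0.02. *Fosb* had 0.85 in *Trex1 WT/FL* and −1.66 in *Trex1 FL/FL* cells on day 3, and 1.5 and −0.18 on day 4.

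**Figure D3:**
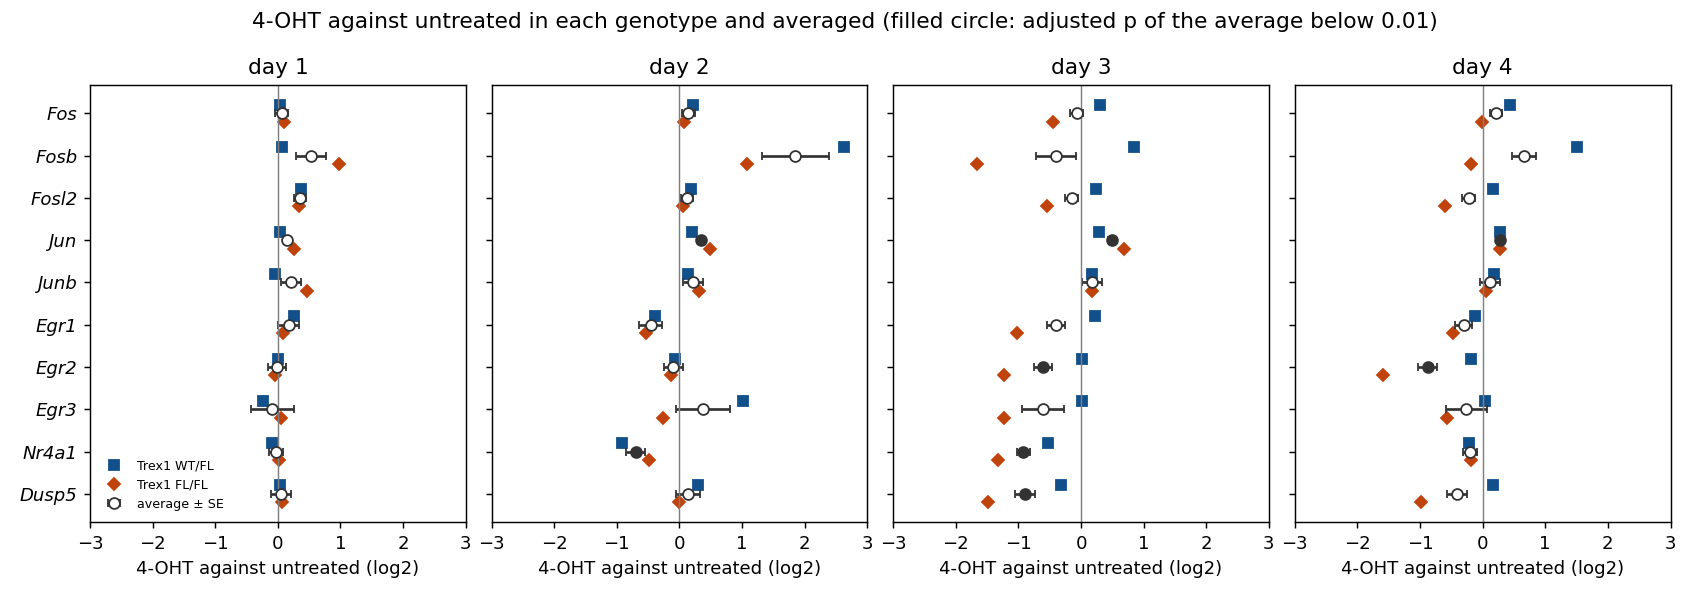
Log2 difference between 4-OHT-treated and untreated cells on each day, for *Trex1 WT/FL* cells (blue squares), *Trex1 FL/FL* cells (orange diamonds) and their average (circles with standard error, filled where the adjusted p of the average was below 0.01). On day 1 no circle is filled, *Jun* is filled and right of 0 on days 2 to 4, and the diamonds of *Egr2* lie at −1.23 on day 3 and −1.59 on day 4. The *Fosb* square of day 2 rests on 2 and 1 counts in the untreated libraries.

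The differences between the genotypes that chose these genes varied with the day. The thresholds used in that choice (adjusted p below 0.01, log2 difference beyond 1.5) were met after 4-OHT by *Fosb* on day 1, by *Fosb*, *Egr2*, *Egr3* and *Dusp5* on day 3 and by *Egr2* on day 4, and without 4-OHT by *Fosb* on day 4. Of all genes, 0.0131%, 0.583%, 0.872% and 2.98% met them on days 1 to 4 after 4-OHT, and 0%, 0%, 0% and 0.00655% without. Nothing is read from these shares, because the same contrasts chose the genes. On day 1 after 4-OHT, *Fosb* was at 6.71 and 5.00 CPM in *Trex1 FL/FL* cells and at 1.08 and 0.659 CPM in *Trex1 WT/FL* cells, a log2 difference of 2.75. The untreated *Trex1 FL/FL* libraries also held more *Fosb* than the untreated *Trex1 WT/FL* libraries on day 1, with 3.53 and 2.38 against 1.23 and 0.413 CPM. On day 2 *Fosb* was at 0.495 and 0.416 CPM in treated *Trex1 FL/FL* and at 0.131 and 0.274 CPM in treated *Trex1 WT/FL* cells.

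On day 3 after 4-OHT, *Egr2* was at 1.46 and 1.93 CPM in *Trex1 FL/FL* cells against 5.37 and 4.76 CPM in *Trex1 WT/FL* cells, a log2 difference of −1.56. *Egr3* was at 0.614 and 0.308 CPM against 1.71 and 1.34 CPM (−1.76), and *Fosb* at 0.351 and 0.188 CPM against 1.05 and 0.871 CPM (−1.92). *Dusp5* was at 3.95 and 3.35 CPM against 12.9 and 8.20 CPM, a difference of −1.54, and lay just inside the threshold of 1.5. *Egr1*, with 3.10 and 2.91 CPM against 5.54 and 6.48 CPM, had a difference of −1.0 and lay outside it, as did *Nr4a1* with −0.97, *Fosl2* with −0.84 and *Fos* with −0.75. *Junb* differed by 0.02. *Jun* went the other way, by 0.44. In the treated *Trex1 FL/FL* libraries 8 genes thus lay below, and *Jun* above, both treated *Trex1 WT/FL* libraries.

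On day 4 after 4-OHT, *Egr2* was at 2.21 and 1.79 CPM in *Trex1 FL/FL* against 6.03 and 5.53 CPM in *Trex1 WT/FL* cells, a log2 difference of −1.53. *Dusp5* lay outside the threshold with 6.89 and 6.63 against 18.9 and 12.6 CPM (−1.22), and *Fosl2* with 28.9 and 30.6 against 56.5 and 47.0 CPM (−0.80). *Fosb*, which was lower on day 3, was at 24.2 and 18.6 CPM against 19.4 and 13.7 CPM (0.37). *Egr3* differed by −0.58, *Egr1* by −0.37, *Fos* by −0.31 and *Nr4a1* by −0.06. Changes of these genotype differences between days were not tested.

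In untreated cells on day 4, *Fosb* was at 28.2 and 20.2 CPM in *Trex1 FL/FL* and at 5.99 and 5.68 CPM in *Trex1 WT/FL* cells, a log2 difference of 2.05. The untreated *Trex1 WT/FL* libraries of day 2 held 2 and 1 counts of *Fosb*, so that no fold is given for that day. The other 9 genes differed by −0.11 to 0.28 between untreated genotypes on day 4. *Egr2* differed by 0.14, 0.07, −0.32 and −0.11 and *Dusp5* by −0.03, 0.16, −0.38 and −0.06 on days 1 to 4 without 4-OHT. *Junb* differed by −0.46 on day 1, and by 0.03 without the untreated *Trex1 FL/FL* replicate 2.

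The 2 libraries of each genotype did not overlap for 4, 6, 9 and 8 of the 10 genes on days 1 to 4 after 4-OHT, against 30.2%, 51.8%, 57.4% and 62.9% of all tested genes. In untreated cells this held for 3, 5, 5 and 5 genes, against 28.2%, 31.7%, 29.1% and 46.0% of all genes. Since this contrast chose the genes, nothing is read from these shares.

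**Figure D4:**
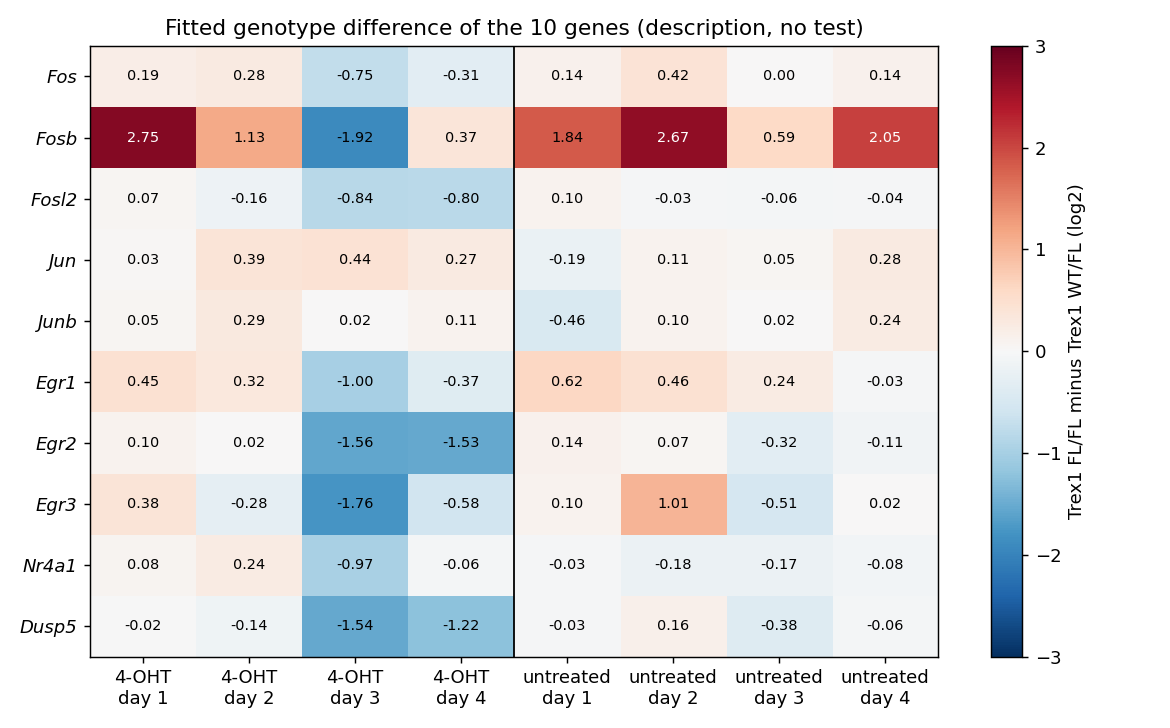
Fitted log2 difference between *Trex1 FL/FL* and *Trex1 WT/FL* cells for each gene, with 4-OHT (left) and without (right), on days 1 to 4. Each cell prints its value, red is higher and blue lower in *Trex1 FL/FL* cells, and no test is attached. The blue block on day 3 after 4-OHT covers 8 genes, on day 4 *Egr2* (−1.53), *Dusp5* (−1.22), *Fosl2* (−0.80) and *Egr3* (−0.58) are bluest, and *Fosb* is red in all 4 untreated columns, where the value of day 2 rests on 2 and 1 counts.

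Some other measures also differed between 4-OHT-treated *Trex1 FL/FL* cells and the other libraries, while some overlapped. On day 3, the 7 dendritic cell markers summed to 2.22 to 2.98 CPM in *Trex1 FL/FL* cells given 4-OHT and to 5.16 to 6.78 CPM in the other libraries, with none at 0 in all libraries. On day 4 these ranges were 1.47 to 2.48 and 5.34 to 7.58 CPM. The 10 macrophage markers summed to 39600 to 39930 against 45743 to 49906 CPM on day 3 and to 29988 to 31914 against 30218 to 34107 CPM on day 4. The 6 fibroblast and stromal markers summed to at most 3.28 CPM in any library. The share of mitochondrial counts was 1.36 to 2.22% in 4-OHT-treated *Trex1 FL/FL* cells on days 2 to 4 and 2.09 to 3.95% in the other libraries of these days. The part of these measures in the differences of the 10 genes was not tested.

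The spread between the 2 libraries of a group differed among the genes. The median absolute log2 difference over the 16 groups was lowest for *Jun* (0.06), *Junb* (0.10) and *Nr4a1* (0.10) and highest for *Fosb* (0.45), *Egr3* (0.30) and *Egr1* (0.22). Over the 10 genes its median was 0.17, and over all tested genes it was 0.12, with quartiles of 0.07 and 0.34. Of 160 pairs of a gene and a group, 14 (8.75%) differed more than 1.5-fold between the libraries, against 14.9% over all tested genes. Of these 14 pairs, 4 were of *Fosb* and 4 of *Egr3*, the genes with the fewest reads. The largest difference of *Fosb* (1.48) was between the untreated *Trex1 WT/FL* libraries of day 1, and that of *Egr3* (1.36) between the treated *Trex1 WT/FL* libraries of day 2. That of *Junb* (1.23) was in the untreated *Trex1 FL/FL* pair of day 1. Over the 45 pairs of these genes, the library of a group that held more of one also held more of the other in 4 (*Egr1* and *Egr2*) to 16 (*Fosb* and *Junb*) of 16 groups. The median of the 45 pairs was 9, and the median with all tested genes was 8.

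**Figure D5:**
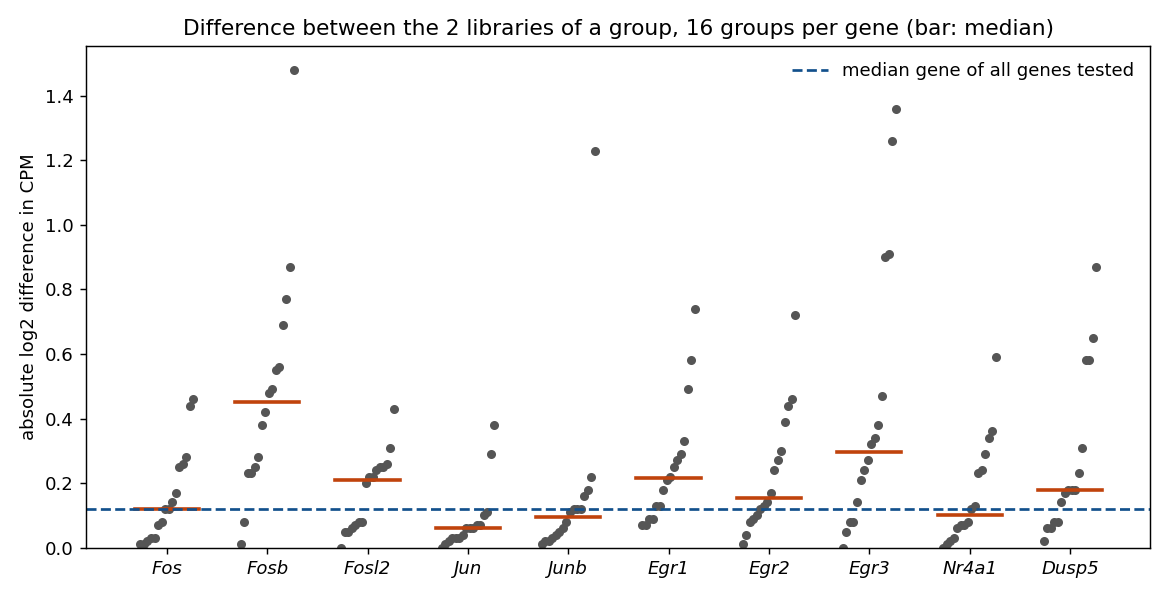
Absolute log2 difference in CPM between the 2 libraries of each of the 16 groups, with 16 points for each gene, an orange bar at the median of the gene and a dashed line at the median gene of all tested genes (0.12). *Jun* lies closest to 0, and *Fosb* and *Egr3* spread most widely.

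Across the 32 libraries, which share days and groups, *Fos* followed the mean of the other 9 genes most closely (Pearson's r = 0.94 of log2 CPM), before *Dusp5* (0.89) and *Fosb* (0.82). *Jun* (0.28) and *Fosl2* (0.04) followed it least. *Egr3* and *Nr4a1* had an r of 0.91 with each other, and *Fos* and *Fosb* an r of 0.92. The 8 tested genes outside the set whose pattern was most like the mean of the 10 genes were *Pip5k1c* (0.95), *6330403L08Rik* (0.94), and *Adcy3*, *Ier2*, *Angptl4*, *Pecam1*, *Cytip* and *Ddx42* (0.92 each). *Ier2*, another immediate early gene, had mean levels of 28.5, 18.5, 32.9 and 51.3 CPM on days 1 to 4. *Cytip* had 26.9, 9.06, 43.6 and 50.1 CPM. *Pip5k1c*, which encodes a lipid kinase, shared the course with a smaller range, at 253, 203, 266 and 296 CPM.

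For 6 of the 10 genes another annotated gene overlaps on the opposite strand, among them the protein-coding *Prdx2* at *Junb* and the long noncoding *Junos* at *Jun*. The strand setting of the libraries is not given in the sources used here, and without strand reads of such partners cannot be told apart. At *Nr4a1* the long noncoding *Gm56721* overlaps on the same strand, where a strand setting would not separate the reads.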

How the data were processed

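RNA-seq of 32 BMDM libraries was analysed. Per the labels and methods, the authors ran FastQC 11.9, Salmon and tximport with GRCm39 as the genome, and tested with DESeq2 1.32. Their table holds deposited estimated counts, one whole number for each gene and library, without normalization. Columns were assigned to samples by the labels' descriptions. GENCODE vM39 gave symbols and coordinates for 51048 of 54281 identifiers, and the rest held 0.320% of the counts. edgeR 4.0.16 (R 4.3.3) was used with TMM factors, a minimum count of 10, and a robust quasi-likelihood model of 16 group means with 16 residual degrees of freedom. P-values were adjusted over 15257 genes (Benjamini-Hochberg). SE is the log2 fold change divided by the square root of F. CPM are TMM-scaled, and log2 CPM use a prior count of 2. The procedure was tested on simulated data. The 10 genes and the lists were chosen with earlier results of these data known. From each list, up to 3 genes with the highest mean CPM among those past an adjusted p of 0.01 in a comparison could be named, and so could the 8 genes most correlated with the 10. Alternatives were other scaling factors (RLE, upper quartile), DESeq2 1.42.0, other filters and thresholds, 1 treatment at a time, and leaving out each library. Counting error was largest for *Fosb* and *Egr3* on day 2. 1 marker list is not reported here.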

Additional observations from a re-analysis of the deposited data

Results flagged for a closer look

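The effect of 4-OHT on *Nr4a1*, averaged over the genotypes, differed between day 3 and day 4 by 0.72 on the log2 scale (SE 0.150, adjusted p = 0.00476, interaction contrast in edgeR). It was −0.92 on day 3 and −0.20 on day 4. In *Trex1 WT/FL* cells it was −0.52 and −0.21, and in *Trex1 FL/FL* cells −1.32 and −0.19. Leaving out each library in turn moved the difference between 0.59 and 0.88, and in 9 of 32 cases the adjusted p rose above 0.01. Groups held 2 libraries, too few for a test of single libraries that lie far from the others.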

How the results depend on the processing

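No paired analysis was possible because the labels carry no replicate, animal or batch numbers. With RLE or upper-quartile factors, or a filter at CPM above 1, no count of genes past an adjusted p of 0.01 moved by over 1.5 times. With the thresholds of the study, 4 genes were lower on day 2 (8 otherwise), 5 higher and 0 lower on day 3 (9 and 1), and 1 higher and 0 lower on day 4 (7 and 2). The 4-OHT effects on days 2, 3 and 4 then held 0 higher and 0 lower genes, and the change from day 3 to day 4 held 0 higher. In 4-OHT-treated cells alone 0 genes fell to day 3 and 1 to day 4, and in untreated cells alone 4 rose to day 4. Without a filter, 4-OHT raised 2, 3, 2 and 3 genes on days 1 to 4 and lowered 3 on day 4, and its effect fell for 2 genes from day 2 to day 3 and rose for 3 from day 3 to day 4. DESeq2 called 2 genes higher with 4-OHT on day 2, 2 higher on day 4 and 2 lower for the change from day 2 to day 3. At an adjusted p below 0.05 there were 2 higher on day 2, 2 higher on day 4, and 1 lower for each of the changes from day 1 to day 2 and from day 2 to day 3. The change of the 4-OHT effect on *Junb* from day 1 to day 2, 0.01 over all libraries, was −0.36 (adjusted p = 0.00110, edgeR) without replicate 1 of untreated *Trex1 FL/FL* day 1, and 0.25 (adjusted p = 0.0409) without replicate 2, the library that stood apart. The cause of these shifts was not tested. Leaving out each library in turn gave 0 to 0 higher and 7 to 8 lower genes on day 2, 7 to 9 and 1 to 1 on day 3, and 6 to 7 and 2 to 2 on day 4. For 4-OHT it gave 0 to 3 higher and 0 to 0 lower on day 1, with 3 only without that same replicate 1, 1 to 2 and 0 to 1 on day 2, 1 to 2 and 2 to 3 on day 3, and 1 to 2 and 1 to 1 on day 4. Changes of the 4-OHT effect held 0 to 1 higher and 0 to 1 lower from day 1 to day 2, 0 to 0 and 0 to 1 to day 3, and 0 to 1 and 0 to 0 to day 4. Of the 80 genotype differences, 54 stayed within 1 SD under every alternative. A reversal of sign was counted only for differences past the thresholds of the study, and 0 of those reversed. Sign changes of the others were not counted, such as that of *Junb* in untreated cells on day 1. It was −0.46 over all libraries and 0.03 without replicate 2 of untreated *Trex1 FL/FL* day 1.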
